A study of Homo sapiens with 42 samples.

Results

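The data describe chromatin accessibility at 10 loci that are widely used as target genes of the co-activator YAP and the TEAD factors: CCN1, CCN2, ANKRD1, AMOTL1, AMOTL2, AJUBA, MYOF, CRIM1, F3 and NUAK2. Their members are all regions to which the authors' annotation gave one of these symbols, in 4 cell lines, which came to 333 of 242490 annotated regions. Of these, 83 were in PC9 (20 within 1 kb of a transcription start and 63 distal), 98 in H1975 (22 and 76), 57 in HCC827 (13 and 44) and 95 in HCC2935 (19 and 76). Distal here means more than 1000 bases from the nearest annotated start, inside a gene or outside. All 4 lines are lung adenocarcinoma lines with an activating EGFR mutation, and ATAC-seq, which cuts open chromatin with a transposase, was read in 42 libraries, 14 groups of 3. Drug-tolerant persister cells (DTP) had grown for 24 days in 500 nM osimertinib, an EGFR tyrosine kinase inhibitor. Cells of the sequential combination (combo) had 21 days of 500 nM osimertinib and then 3 days of 150 nM AZD5153, a second small-molecule drug. Control cells had 21 days without drug and 3 days of DMSO, and a group with AZD5153 alone (3 days at 150 nM after 21 days without drug) existed in PC9 and H1975 only. Whether osimertinib stayed on during the final 3 days of combo is not in the labels, so between combo and DTP the addition of AZD5153 and a loss of osimertinib cannot be told apart.

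YAP and its relative TAZ are held in the cytoplasm by the LATS kinases of the Hippo pathway, and when released they enter the nucleus and bind TEAD factors on DNA. TEAD factors recognise a short core motif, sit mostly at enhancers away from transcription starts, and often share these sites with AP-1, the dimer of FOS and JUN proteins. In EGFR-mutant lung cancer, YAP activity has been linked to survival under EGFR inhibitors. The 10 genes fall into secreted and nuclear effectors (CCN1, CCN2, ANKRD1), proteins that act on the Hippo pathway itself (AMOTL1, AMOTL2, AJUBA, NUAK2) and cell surface or membrane proteins (MYOF, CRIM1, F3).

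The sequence upstream of a start shows what kind of site the promoter regions cover, so 3 promoters are printed, the promoter with the most TEAD cores, the promoter with both motifs and the promoter with AP-1 motifs alone. Each is the 250 bases before the start, 5′ to 3′ on the strand of the gene, from RefSeq (GRCh38.p14), with matches in capitals. The motifs searched on both strands were the AP-1 motif TGANTCA and the TEAD core GGAATG, and no AP-1 match overlapped a TEAD match in the sequences shown. The promoter of CCN2 lies at chr6:131951373-131951622, ANKRD1 at chr10:90921088-90921337 and F3 at chr1:94541760-94542009, all on the minus strand.
CCN2: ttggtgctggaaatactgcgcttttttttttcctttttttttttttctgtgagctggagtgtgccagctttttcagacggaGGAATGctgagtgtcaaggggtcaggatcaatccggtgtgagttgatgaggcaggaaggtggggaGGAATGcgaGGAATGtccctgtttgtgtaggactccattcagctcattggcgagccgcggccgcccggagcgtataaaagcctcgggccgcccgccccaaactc
ANKRD1: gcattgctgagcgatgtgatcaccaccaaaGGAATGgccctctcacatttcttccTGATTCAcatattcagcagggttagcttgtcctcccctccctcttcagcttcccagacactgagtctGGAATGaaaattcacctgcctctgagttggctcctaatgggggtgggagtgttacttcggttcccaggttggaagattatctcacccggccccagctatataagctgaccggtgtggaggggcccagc
F3: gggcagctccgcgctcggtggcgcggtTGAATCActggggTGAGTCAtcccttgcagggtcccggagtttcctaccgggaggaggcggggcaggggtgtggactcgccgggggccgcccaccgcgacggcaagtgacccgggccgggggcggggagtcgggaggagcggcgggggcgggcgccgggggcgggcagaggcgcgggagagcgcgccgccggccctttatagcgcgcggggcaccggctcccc
The CCN2 sequence held 3 TEAD cores, 169, 104 and 95 bases before the start, and no AP-1 motif. The ANKRD1 sequence held TEAD cores at 220 and 128 bases and an AP-1 motif at 195 bases between them. The F3 sequence held AP-1 motifs at 223 and 210 bases and no TEAD core. Of 35116 promoters of this length, 11.9% held at least 1 TEAD core, 0.94% at least 2 and 0.0826% at least 3, and 6.57% held an AP-1 motif. Promoter sequences were matched for 8 of the 10 genes, 10 sequences in all, and a TEAD core was present in 5 of them, from CCN2, ANKRD1, NUAK2, AJUBA and AMOTL2. In all 4 lines a region of the count tables overlapped the printed sequence of CCN2, of ANKRD1 and of F3.

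PC9 libraries held 3989287 to 5193390 counts, H1975 libraries 6200672 to 10062505, HCC827 libraries 1724680 to 4242868 and HCC2935 libraries 3968690 to 8066287. Levels are CPM, the read count after TMM scaling relative to library size, listed in the order of replicates 1 to 3, and since all regions are 502 bases wide a CPM per region needs no length correction. The labels call the libraries biological triplicates, but in 9 of the 12 PC9 pairs and 5 of the 12 H1975 pairs of a group the difference did not exceed counting noise, so p-values in these lines measure only the spread between these libraries, which may be technical. HCC827 had a biological coefficient of variation of 45.05%, against 10.15% for HCC2935, 3.201% for H1975 and 0.9882% for PC9. In HCC827 libraries with the same replicate number deviated together, and values with the replicate as a block are given beside the results of that line that the block changes. All 5 epithelial marker genes had a promoter region in every line (4.79 to 89.0 CPM). Of 7 markers of blood, endothelium and muscle, 2 had such a region in PC9 and H1975, 1 in HCC2935 and none in HCC827. Those with a region read 1.5 to 16.2 CPM in PC9, 0.913 to 19.6 in H1975 and 14.5 to 29.0 in HCC2935. Their range lay below that of the epithelial markers in PC9 and overlapped it in H1975 and HCC2935.

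The first question was how many of the regions differed between DTP and control cells, and whether this differed from other regions. In PC9, 29 of 63 distal regions were called (46.0%; 10 higher and 19 lower), against 46.8% of all annotated distal regions (17.3% higher and 29.5% lower), and 1 of 20 near a start, against 26%. In H1975, 58 of 76 distal regions were called (76.3%; 27 higher and 31 lower), against 70% (25.2% and 44.8%), and 11 of 22 near a start, against 49.9%. In HCC2935, 38 of 76 distal regions were called (50%; 19 higher and 19 lower), against 51.8% (25.4% and 26.4%), and 7 of 19 near a start, 6 of them higher, against 33.1% called and 21.2% higher. The shares of called distal regions thus lay close to those of all distal regions in each line. The distal regions had a median log2 fold change of -0.157 in PC9, beside -0.155 over all annotated distal regions. The same pair of medians was -0.017 and -0.209 in H1975, and -0.016 and 0.01 in HCC2935. In HCC827 no region was called by edgeR (adjusted p under 0.05), against 0.0837% of distal regions and 0% near a start, while 7 had an unadjusted p under 0.05. DESeq2 called 2 there, against 434 of all 82309 tested regions. With the replicate block 4 of 57 HCC827 regions were called, against 3.88% of all tested regions. When the libraries of a group were added up and the spread was borrowed from HCC2935, 15 PC9 regions were called in place of 30. Over all tested PC9 regions the same change gave 21227 calls in place of 40150. Under library size scaling the H1975 split was 42 higher and 27 lower in place of 34 and 35, with the median of all H1975 regions at 0.22, and with regional medians removed the HCC2935 split was 18 higher and 25 lower in place of 25 and 20.

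**Figure D1:**
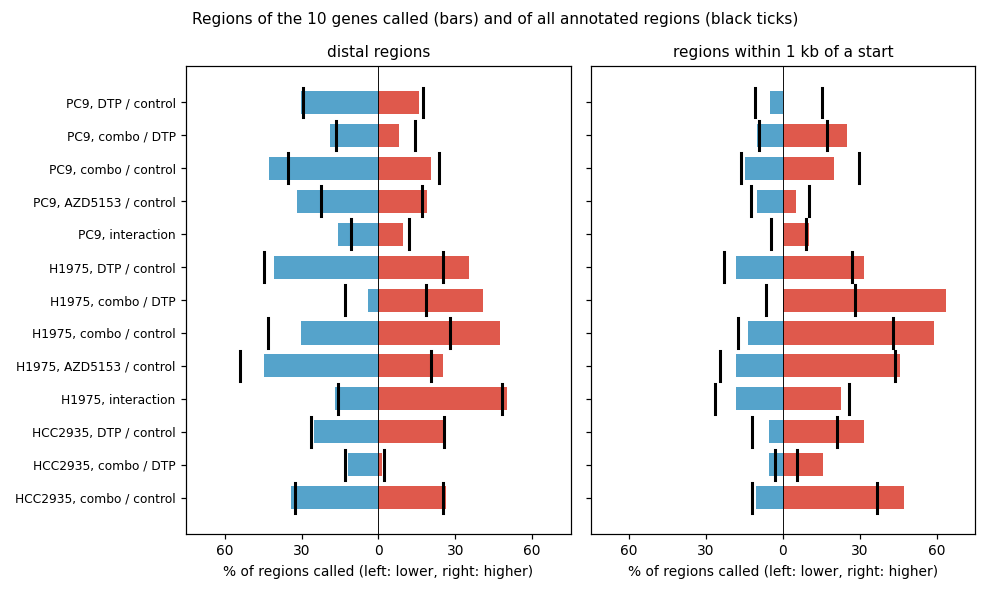
Share of regions of the 10 genes called higher (right, red) or lower (left, blue) in each comparison, in % of the regions, for distal regions and for regions within 1 kb of a start, with black ticks for all annotated regions of the class. Most bars end near their tick, and in H1975 combo against DTP the bars for higher calls reach 40.8% (distal) and 63.6% (near a start) against ticks at 18.5% and 28.1%.

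Before treatment the lines already differed at these loci. Over regions matched in all 4 tables and scaled together, the summed distal level of CCN1 in control cells was 291.0 ± 30.2 CPM in HCC827, 128.8 ± 8.52 in H1975, 90.09 ± 2.01 in PC9 and 76.01 ± 17.5 in HCC2935 (SD, n = 3). PC9 and HCC2935 overlapped, and the other neighbours in this order did not. At AMOTL2 the order was different, with 321.7 ± 20.9 CPM in PC9, 231.9 ± 13.0 in HCC2935, 192.3 ± 9.13 in HCC827 and 170.8 ± 7.33 in H1975, none overlapping its neighbour (SD, n = 3). MYOF distal regions summed to 488.3 ± 7.06 CPM in H1975 and 230.2 ± 7.37 in PC9, with HCC2935 and HCC827 between them and overlapping each other (SD, n = 3). No line was thus highest at every gene. These orders are descriptions, and the tables of the lines were made separately.

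CCN1 encodes a secreted matricellular protein that binds integrins and is among the most used readouts of YAP activity. In DTP cells the signal rose at a pair of distal elements about 31 and 41.5 kb downstream of the start, while the most open region over the start was not called and the regions next to it, over the gene, were lower where they were called. The element at chr1:85612759-85613260, 31296 bases downstream and outside any gene, read 7.31, 6.59 and 5.95 CPM in PC9 control cells and 17.5, 17.5 and 21.5 in DTP. At its place in H1975 (chr1:85612509-85613010) the levels were 0.928, 0.673 and 0.539 CPM in control and 6.78, 5.9 and 8.51 in DTP. HCC2935 read 5.46, 5.32 and 6.26 CPM in control and 10.3, 14.6 and 12.0 in DTP. In each of these lines every DTP library lay above every control library. The log2 fold change was 1.52 in PC9 (SE 0.18, edgeR adjusted p = 9.79e-15), 3.30 in H1975 (SE 0.29, adjusted p = 3.35e-23) and 1.12 in HCC2935 (SE 0.22, adjusted p = 6.7e-05). In HCC827 the element read 13.0, 17.2 and 10.5 CPM in control and 25.8, 36.1 and 50.2 in DTP, again without overlap. Its log2 fold change was 1.48 (SE 0.43, adjusted p = 0.282), and 1.43 with the replicate block (SE 0.31, adjusted p = 0.00902). Between the regions matched here, the size of the rise differed between PC9, H1975 and HCC2935 (adjusted p = 7.91e-06, test of the difference). In H1975 the signal is split over 2 regions. The other, at chr1:85613026-85613527, also overlaps the PC9 element and rose by 1.42 (edgeR adjusted p = 3.99e-14). How far the difference between lines rests on this split was not tested. In bulk libraries more cells with an open region and a more open region in each cell cannot be told apart.

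The second CCN1 element, 41512 bases downstream at chr1:85622975-85623476, was chosen after its values were seen. In H1975 it read 0.773, 1.21 and 1.48 CPM in control cells and 3.97, 4.31 and 4.81 in DTP (log2 fold change 1.89, SE 0.29, adjusted p = 3.31e-09). In HCC827 it read 4.98, 3.82 and 2.11 CPM in control and 20.8, 15.9 and 20.3 in DTP, with no overlap. The HCC827 log2 fold change was 2.39 (adjusted p = 0.0971), and 2.42 with the replicate block (SE 0.37, adjusted p = 0.000706). HCC2935 read 0.874, 1.18 and 2.82 CPM in control and 4.37, 5.46 and 2.48 in DTP, where replicate 3 of DTP overlapped replicate 3 of control (log2 fold change 1.42, SE 0.40, adjusted p = 0.004). In PC9 the element was not in the annotated table, and its matched region read 2.08, 2.64 and 1.62 CPM in control and 5.61, 6.63 and 6.5 in DTP on the scale of the 4 tables together. In the matched regions the log2 fold change was 1.49 in PC9, 1.89 in H1975 and 1.42 in HCC2935, and a difference between these lines was not detected (adjusted p = 0.66).

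The most open distal CCN1 region, 25 kb downstream, did not rise with these elements in H1975 or PC9, and was called higher in HCC2935. At chr1:85607107-85607608 H1975 read 61.5, 58.4 and 54.1 CPM in control and 40.3, 43.6 and 41.1 in DTP (log2 fold change -0.47, SE 0.07, adjusted p = 6.12e-10). In HCC2935 the matched region read 20.5, 14.8 and 26.9 CPM in control and 30.0, 30.8 and 23.5 in DTP, with overlap (0.45, adjusted p = 0.0251), and in PC9 it was not called (-0.21, adjusted p = 0.0909). The lines also parted at a region 17 kb downstream that the annotation places in an exon. There H1975 fell from 47.2, 43.9 and 44.9 CPM to 12.5, 15.3 and 13.9 (log2 fold change -1.70, SE 0.09, adjusted p = 2.05e-46), and HCC2935 rose from 4.37, 4.43 and 4.69 to 16.5, 11.6 and 10.3 (1.51, SE 0.25, adjusted p = 4.93e-06). The most open region over the CCN1 start was not called in any line, and its log2 fold change was -0.21 in PC9, 0.04 in HCC2935, -0.03 in H1975 and -0.15 in HCC827. The region beside it was lower in PC9 (-0.47, adjusted p = 0.0294) and H1975 (-0.92, adjusted p = 1.7e-05). A region about 0.85 kb into the gene read 16.9, 13.7 and 12.8 CPM in H1975 control and 9.09, 9.07 and 8.4 in DTP (-0.70, adjusted p = 1.02e-06), and in HCC2935 it read 14.9, 16.2 and 9.7 against 7.6, 8.44 and 6.87 (-0.84, adjusted p = 0.00169).

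**Figure D2:**
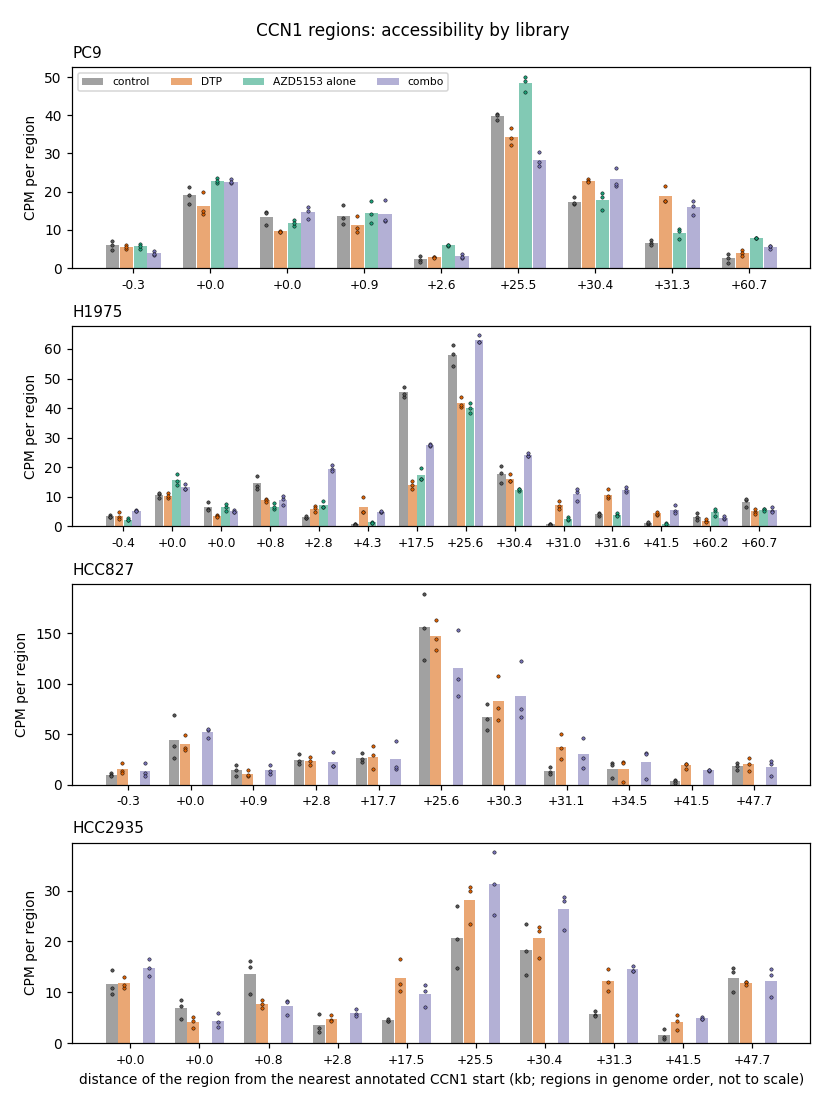
CPM of each CCN1 region in each library, by line, ordered along the genome from left to right, with the distance to the nearest annotated start in kb under each group. Bars are group means and points are libraries. The DTP bars rise above the control bars at the element 31 kb downstream in each line, while the region 25 kb downstream is the highest in each line.

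CCN2, the relative of CCN1 also known as connective tissue growth factor, behaved in another way, with the rise at its start. Over the start, where the 3 TEAD cores lie, H1975 read 4.79, 6.19 and 4.85 CPM in control, 11.6, 9.98 and 9.52 in DTP, 10.7, 10.5 and 11.6 with AZD5153 alone and 19.8, 18.1 and 21.3 in combo. Each treated group lay above control, and combo lay above both single treatments. The log2 fold change was 0.96 for DTP against control (SE 0.16, adjusted p = 3.41e-08), 1.05 for AZD5153 against control (adjusted p = 2.04e-09) and 0.94 for combo against DTP (adjusted p = 1.79e-12). The interaction, the change from DTP to combo minus the change from control to AZD5153 alone, was -0.12 (adjusted p = 0.669). HCC2935 read 9.83, 10.6 and 15 CPM in control, 15.6, 17.2 and 16.8 in DTP and 17.7, 19.9 and 22.5 in combo, without overlap of either with control. Its log2 fold change was 0.51 in DTP (adjusted p = 0.0223) and 0.78 in combo against control (adjusted p = 0.000307). PC9 read 16.8, 14.7 and 14.9 CPM in control and 15.6, 15.2 and 17.3 in DTP (0.06, not called), and 22.9, 21.2 and 18.1 in combo (0.38 against DTP, adjusted p = 0.0334). HCC827 ran from 11.4 to 36.3 CPM over its 9 libraries, with all groups overlapping and no call with or without the block.

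Distal CCN2 regions did not follow the start. The region 15 kb upstream, in an intron at chr6:131966393-131966894, fell in H1975 from 17.3, 14.4 and 12.9 CPM in control to 6.65, 8.96 and 8.62 in DTP (log2 fold change -0.86, SE 0.13, adjusted p = 3.9e-09). In HCC2935 it fell from 14.4, 12.7 and 9.7 to 4.18, 5.13 and 4.01 (-1.47, SE 0.24, adjusted p = 2.92e-06). In both lines the start thus gained signal while this region lost it, with no overlap of libraries in either case. In PC9 it was a region 52128 bases upstream that changed, from 1.91, 2.03 and 0.496 CPM in control to 7.53, 6.19 and 4.5 in DTP and back to 2.68, 1.33 and 1.6 in combo. That region was chosen after its values were seen. Its log2 fold change was 2.06 in DTP against control (SE 0.35, adjusted p = 1.86e-07) and -1.67 in combo against DTP (SE 0.33, adjusted p = 1.45e-05).

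ANKRD1 encodes a nuclear ankyrin repeat protein of muscle and other cells that is strongly induced by YAP. Its start region, which covers the printed promoter, read 13.3, 13.5 and 13.1 CPM in H1975 control, 20, 21.0 and 19.8 in DTP, 17.8, 19.9 and 20.5 with AZD5153 and 28.2, 26.2 and 27.5 in combo. In HCC2935 it read 24.9, 22.7 and 27.2 CPM in control, 37.8, 36.6 and 32.4 in DTP and 42.6, 45.8 and 41.5 in combo. Both lines rose in DTP, by a log2 fold change of 0.61 in H1975 (adjusted p = 3.34e-07) and 0.51 in HCC2935 (adjusted p = 0.00093), and by 1.04 (adjusted p = 6.88e-19) and 0.80 (adjusted p = 5.82e-07) in combo against control. HCC827 read 17.4, 17.2 and 24.5 CPM in control, 22.2, 21.8 and 50.5 in DTP and 32.8, 29.0 and 67.5 in combo, with replicate 3 the highest of each group. Its combo change against control was 1.14 (adjusted p = 0.353), and 1.08 with the replicate block (SE 0.25, adjusted p = 0.0111). PC9 differed, with 12.4, 10.9 and 7.44 CPM in control, 10.9, 9.8 and 15.3 in DTP and 8.54, 7.95 and 9.32 in combo. The DTP change of 0.25 was not called there, and combo was lower than DTP (-0.48, adjusted p = 0.0461).

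**Figure D3:**
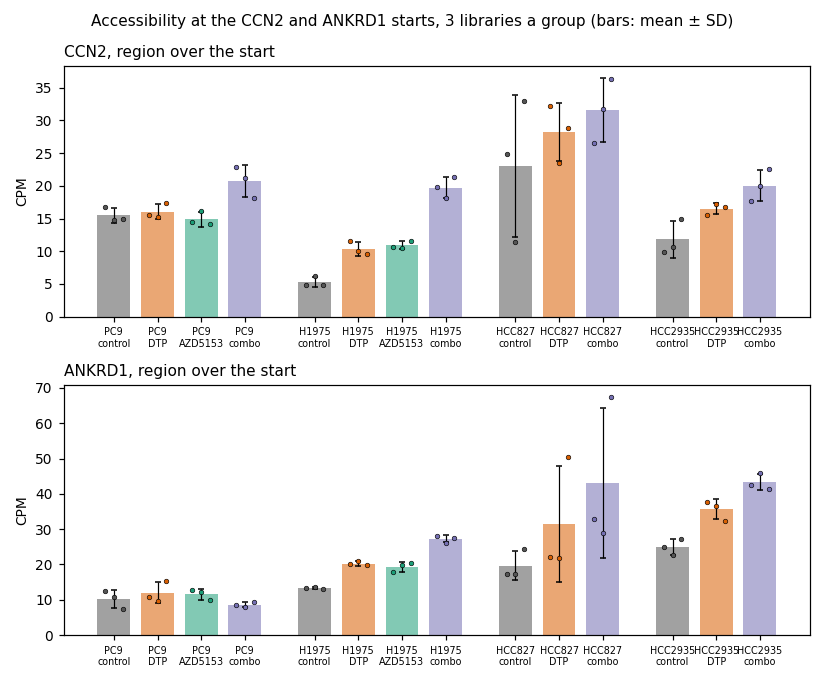
CPM of the region over the CCN2 start (upper) and the ANKRD1 start (lower) in each group. Points are libraries and bars are means with SD over 3 libraries. In H1975 and HCC2935 the control libraries lie below the DTP libraries at both starts, and the HCC827 bars have the widest error, with ANKRD1 libraries from 17.2 to 67.5 CPM.

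Far regions of ANKRD1 changed too. Those 9959, 49152 and 48109 bases upstream were chosen after their values were seen. In HCC2935 the regions 9248 and 9959 bases upstream read 2.18, 2.95 and 1.88 CPM and 0.655, 0.886 and 0.313 CPM in control, and 11, 12.6 and 10.1 and 9.88, 8.27 and 8.97 in DTP. These are log2 fold changes of 2.26 (SE 0.27, adjusted p = 7.75e-09) and 3.79 (SE 0.41, adjusted p = 4.33e-10). At the place matched to the farther of them the change was called in H1975 too (3.74) and was not called in PC9 (0.30), with a called difference between lines (adjusted p = 2.43e-06). In H1975 a region 49152 bases upstream rose from 1.39, 0.942 and 1.35 CPM to 7.17, 7.94 and 9.18, and it stood at 4.46, 3.24 and 4.28 in combo and at 0.903, 0.523 and 1.6 with AZD5153 alone. Its change was 2.72 in DTP (SE 0.24, adjusted p = 3.68e-22) and -1.02 in combo against DTP (SE 0.18, adjusted p = 9.54e-07). In PC9 a region 48109 bases upstream fell from 5.4, 5.58 and 4.71 CPM to 1.94, 2.32 and 2.5 (-1.20, SE 0.32, adjusted p = 0.00152).

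AMOTL2 encodes an angiomotin family protein that binds YAP and retains it outside the nucleus, and as a target of YAP it acts in negative feedback. In PC9, 8 of its 11 distal regions were lower in DTP than in control and none was higher. In H1975, 9 of 13 were higher and 3 lower, and in HCC2935, 2 of 8 were higher and 2 lower. Over all annotated distal regions these shares were 29.5% lower and 17.3% higher in PC9, 25.2% higher and 44.8% lower in H1975, and 25.4% higher and 26.4% lower in HCC2935. Under DESeq2 size factors and with regional medians removed the counts were the same, and under library size scaling they were 7 lower in PC9 and 10 higher in H1975. With libraries summed they were 2 lower in PC9 and 9 higher in H1975. A start region was called in H1975 alone (0.62, adjusted p = 2.6e-05), beside the most open start region, which was called in none of the 4 lines. Positions below are given from the RefSeq AMOTL2 start, with positive values into the gene.

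Regions about 20 kb into the locus changed in opposite directions in PC9 and H1975. The region at 19.6 kb was chosen after its values were seen. At 19.6 kb (chr3:134354597-134355098, intron) H1975 read 0.309, 0.404 and 0.135 CPM in control, 7.42, 5.44 and 6.94 in DTP, 3.1, 4.18 and 3.76 with AZD5153 alone and 11.7, 12.1 and 12.3 in combo. At the matched place PC9 read 6.04, 5.07 and 5.7 CPM in control, 4.13, 2.58 and 2.5 in DTP, 2.87, 3.25 and 3.75 with AZD5153 and 0.976, 2.39 and 1.33 in combo. The region thus gained signal in H1975 from near absence and lost part of its signal in PC9. These CPM were scaled within each line, so the levels are not compared between lines. The log2 fold change in DTP was 4.47 in H1975 (SE 0.35, adjusted p = 5.76e-27) and -0.85 in PC9 (SE 0.29, adjusted p = 0.0169), and the difference between lines was called (adjusted p = 1.61e-15). At 22.0 kb PC9 fell from 35.9, 33.5 and 33.5 CPM to 22.6, 21.1 and 21.3 in DTP, 14.1, 15.5 and 12.2 with AZD5153 and 17.6, 17 and 16.0 in combo. There H1975 rose from 2.47, 0.404 and 1.75 to 7.55, 9.41 and 9.74 in DTP. HCC2935 rose in DTP from 3.28, 5.02 and 7.51 to 12.5, 12.4 and 14.9 and returned to 7.06, 6.34 and 4.23 in combo. The DTP changes at this region were -0.65 in PC9 (adjusted p = 2.84e-07), 2.56 in H1975 (adjusted p = 2.46e-22) and 1.38 in HCC2935 (adjusted p = 1.61e-05), with a called difference between lines (adjusted p = 6.35e-20). The return in HCC2935 combo against DTP was -1.16 (adjusted p = 0.000283).

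**Figure D4:**
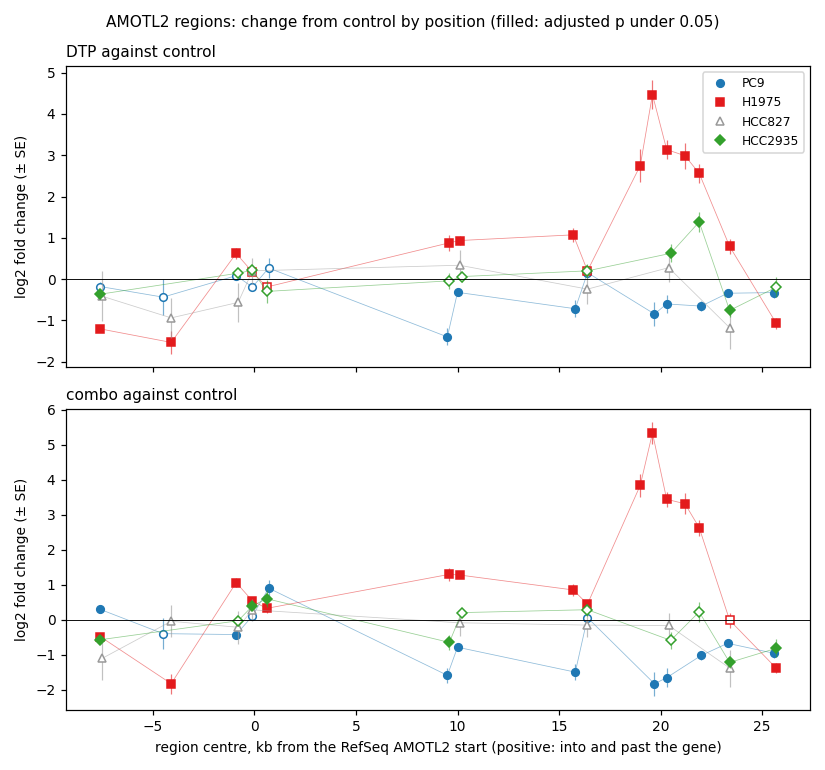
Log2 fold change of each AMOTL2 region from control (vertical bars are SE) against the distance of its centre from the RefSeq start in kb, in DTP (upper) and combo (lower). Filled symbols are called at an adjusted p under 0.05. H1975 reaches 4.47 at 19.6 kb in DTP, where PC9 lies at -0.85, and the most open region over the start, between -0.19 in PC9 and 0.21 in HCC2935, is not called in DTP.

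Upstream of AMOTL2 the largest response was to AZD5153 alone. The region 7.6 kb upstream of the start (chr3:134381799-134382300) read 43.3, 46.1 and 43.1 CPM in H1975 control, 17, 21.8 and 18.5 in DTP, 3.48, 2.44 and 3.42 with AZD5153 and 31.6, 30.3 and 33.3 in combo. AZD5153 alone thus lay below control while combo lay above DTP, with no overlap between any of the groups. The log2 fold change was -3.79 for AZD5153 against control (SE 0.13, adjusted p = 1.31e-76) and 0.73 for combo against DTP (SE 0.09, adjusted p = 3.58e-12), an interaction of 4.52 (SE 0.16, adjusted p = 5.06e-72). In PC9 the same place read 27.0, 27.1 and 28.3 CPM in control and 27.3, 27.8 and 25.8 with AZD5153 (-0.03, not called), and 36.1, 33.4 and 32.0 in combo against 22.4, 25.3 and 25.3 in DTP (0.48, adjusted p = 0.000268). HCC2935 fell from 44.3, 40.8 and 36.0 CPM in control to 30.2, 31.4 and 32.8 in DTP (-0.37, adjusted p = 0.0122). In HCC827 the region was called lower in combo than in control with the replicate block (-1.34, SE 0.34, adjusted p = 0.0181) and with libraries summed, and not called in the fit without either (-1.10, adjusted p = 0.656).

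AMOTL1, the second angiomotin family gene, fell at distal regions in H1975. The region 15288 bases from the nearest start, in an intron at chr11:94880116-94880617, read 27.2, 22.9 and 20.4 CPM in control, 2.94, 4.42 and 3.47 in DTP, 2.45, 1.74 and 2.85 with AZD5153 and 1.18, 0.997 and 0.675 in combo. The log2 fold change was -2.68 in DTP (SE 0.14, adjusted p = 1.49e-46), -3.26 with AZD5153 (adjusted p = 1.03e-50) and -4.61 in combo against control (SE 0.19, adjusted p = 6.98e-62). The region 18756 bases upstream fell further, from 12.2, 12.1 and 7.15 CPM to 0.384, 0.0 and 0.112 in DTP (-5.92, SE 0.35, adjusted p = 5.01e-40), and was chosen after its values were seen. In HCC827 the region matched to the one 15288 bases from a start read 20.4, 21.6 and 29.1 CPM in control and 12.2, 13.4 and 33.1 in DTP, with overlap and no call with or without the block. The H1975 falls ran against the surroundings, where the median of all regions in the 10 Mb bin was 0.44 in DTP.

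At the place matched to the H1975 region 15288 bases from a start, PC9 fell as well, from 6.04, 6.08 and 6.94 CPM in control to 1.94, 1.8 and 0.751 in DTP (-2.07, SE 0.34, adjusted p = 5.56e-08), without overlap. Another AMOTL1 region rose in PC9. The intron region 7909 bases into the gene rose from 8.58, 6.08 and 9.43 CPM in control to 13.1, 13.4 and 14 in DTP and 27.6, 29.4 and 22.6 in combo. Its change was 0.75 in DTP (SE 0.19, adjusted p = 0.00042) and 0.97 in combo against DTP (SE 0.14, adjusted p = 2.94e-10). The PC9 intron region at chr11:94794238-94794739 fell from 18.7, 15 and 15.9 CPM to 8.99, 7.48 and 11.3 (-0.82, SE 0.17, adjusted p = 2.13e-05). Its matched region in HCC2935 was called higher in DTP (2.55). In HCC2935, 5 of 10 distal regions were higher in DTP, beside 25.4% of all annotated distal regions of that line. The HCC2935 start region rose from 6.99, 8.86 and 10.0 CPM to 15.4, 18.4 and 12.4 in DTP and 22.9, 22.8 and 21.3 in combo. The start changed by 0.87 in DTP (SE 0.19, adjusted p = 0.000401). In the same place the median of the 300 tested regions of the 10 Mb bin was 0.84 in DTP and 0.91 in combo against control, and with regional medians removed 1 distal region was higher and 4 were lower. The part of this regional shift in the AMOTL1 values was not tested.

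AJUBA encodes a LIM domain scaffold that binds LATS kinases and limits their action on YAP. Its internal start region at chr14:22977602-22978103 rose in H1975 from 4.79, 5.78 and 3.37 CPM in control to 6.4, 8.05 and 7.84 in DTP, 12.9, 12.0 and 10.0 with AZD5153 and 11.2, 12.3 and 8.56 in combo. In HCC2935 it rose from 14.6, 13.6 and 14.7 CPM to 27.2, 31.3 and 32.1 in DTP and 31.4, 40.4 and 33.6 in combo. The changes in DTP were 0.68 in H1975 (SE 0.18, adjusted p = 0.000584) and 1.07 in HCC2935 (SE 0.15, adjusted p = 1.19e-07), with no overlap in either line. None of the 4 AJUBA regions in PC9 was called in DTP. In HCC827 another start region read 8.47, 15.3 and 9.27 CPM in control and 20.9, 29.9 and 31.5 in combo. Its change was 1.33 (adjusted p = 0.162), and 1.35 with the replicate block (SE 0.31, adjusted p = 0.00858).

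NUAK2 encodes an AMPK-related kinase that acts back on YAP signalling. Its most open distal region, 20 kb downstream, moved in opposite directions in 2 lines. HCC2935 read 14.4, 10.3 and 13.1 CPM in control and 41.8, 38.7 and 36.1 in DTP, and H1975 read 30.5, 33.6 and 32.1 in control and 16.8, 17.2 and 21.4 in DTP. PC9 stayed at 17.2, 17.2 and 17.1 against 17, 16.2 and 18. The log2 fold changes were 1.60 in HCC2935 (SE 0.14, adjusted p = 3.32e-12), -0.79 in H1975 (SE 0.09, adjusted p = 1.14e-14) and -0.01 in PC9, and the difference between lines was called (adjusted p = 5.27e-24). With AZD5153 alone H1975 fell to 13.2, 12.7 and 11.9 CPM, and in combo it stood at 39.2, 41.8 and 40.2, above control. That is an interaction of 2.48 (SE 0.13, adjusted p = 2.01e-45), where the 10 Mb bin had a median interaction of 0.50. HCC827 ran from 27.2 to 75.9 CPM with all groups overlapping and no call.

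F3 encodes tissue factor, the membrane receptor that starts blood coagulation. Its start, the promoter with AP-1 motifs and no TEAD core, was not called in DTP in any line, with log2 fold changes of 0.07 in PC9 and H1975, -0.08 in HCC827 and 0.19 in HCC2935. The change in PC9 was at a distal region 21077 bases upstream (chr1:94562836-94563337), which read 5.08, 4.56 and 5.21 CPM in control, 17.5, 21.1 and 13.3 in DTP, 8.61, 8.12 and 9.85 with AZD5153 and 24.9, 26.5 and 26.6 in combo. Each of these groups was separate from the others. Its change was 1.80 in DTP (SE 0.20, adjusted p = 5.68e-17) and 2.39 in combo against control (SE 0.18, adjusted p = 9.89e-35), and the change of combo against DTP (0.59, adjusted p = 0.000126) was not called with libraries summed. HCC2935 read 2.84, 4.43 and 4.69 CPM there in control, 4.75, 4.96 and 6.3 in DTP and 8.74, 9.8 and 6.04 in combo, and rose in combo against control (1.09, SE 0.27, adjusted p = 0.00116).

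CRIM1 encodes a transmembrane protein that binds growth factors of the BMP family. An intron region 20 kb into the gene fell in DTP in PC9, H1975 and HCC2935, and in PC9 it fell further in combo. PC9 read 41.0, 41.8 and 38.4 CPM in control, 17.5, 16.0 and 14 in DTP, 29.4, 33.2 and 29.1 with AZD5153 and 2.44, 2.39 and 2.66 in combo (chr2:36377038-36377539). The log2 fold change was -1.35 in DTP (SE 0.12, adjusted p = 1.71e-25), -0.40 with AZD5153 alone (SE 0.10, adjusted p = 0.000589) and -4.00 in combo against control (SE 0.18, adjusted p = 5.11e-80), and the interaction was -2.25 (SE 0.26, adjusted p = 3.28e-14). H1975 read 28.3, 32.2 and 32.2 CPM in control, 21.8, 23.9 and 20.2 in DTP, 14.6, 12.2 and 13.3 with AZD5153 and 27.7, 24.1 and 26.3 in combo. There the interaction had the other sign, 1.45 (SE 0.14, adjusted p = 5.17e-20), and the DTP change was -0.50 (adjusted p = 3.94e-07). HCC2935 fell from 36.5, 28.1 and 37.6 CPM to 24.7, 23.2 and 17.4 in DTP (-0.65, adjusted p = 0.000558). HCC827 read 27.4, 18.4 and 37.5 in control and 10.0, 13.4 and 16.4 in DTP, without overlap (-1.05, adjusted p = 0.473, and -1.07 with the replicate block, SE 0.29, adjusted p = 0.0392). A second HCC827 intron region rose from 0.498, 4.45 and 1.26 CPM to 20.8, 19.3 and 56.0 in DTP, called with the block (4.06, SE 0.50, adjusted p = 0.000119), with libraries summed, without a filter, by DESeq2 and without combo replicate 3. With TMM scaling and no block it was 4.04 (adjusted p = 0.128). This second region was chosen after its values were seen.

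MYOF encodes myoferlin, a membrane protein of vesicle fusion and repair. Its intron region at chr10:93334854-93335355 was called lower in DTP in the 3 lines other than HCC827. The change was -0.50 in PC9, -0.63 in H1975 and -0.40 in HCC2935, with no called difference between them (adjusted p = 0.548). In HCC827 the matched region changed by -0.48, and by -0.63 with the replicate block, and was called in neither fit. PC9 read 24.1, 25.6 and 22.6 CPM in control, 16.0, 17.3 and 17.8 in DTP, 19.1, 22.3 and 20.9 with AZD5153 and 8.78, 10.3 and 9.59 in combo (-0.83 against DTP, SE 0.17, adjusted p = 1.92e-05). The most open distal region in H1975, 23001 bases from a start, rose in place of falling, from 44.7, 47.5 and 40.2 CPM to 55.7, 60.3 and 57.3 in DTP and 69.4, 72.8 and 67.3 in combo (0.39 in DTP, adjusted p = 2.81e-07). Of the 20 distal MYOF regions in H1975, 5 were called higher and 9 lower, beside 25.2% and 44.8% of all annotated distal regions of that line. Under library size scaling these were 8 and 7.

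Over the matched regions the DTP change was compared between PC9, H1975 and HCC2935 in 1 fit. A difference between the lines was called at 49 of 89 matched regions of the 10 genes (55.1%), against 43.8% of all matched regions. Called higher in all 3 lines were the CCN1 elements at 31 and 41.5 kb and an F3 region 8317 bases downstream (0.34, 0.73 and 1.37 in PC9, H1975 and HCC2935), and called lower in all 3 were the MYOF and CRIM1 intron regions above. Calls in opposite directions in at least 2 lines were found at 19 of the 89 regions, and 19 were called in no line. The shares of these patterns over all matched regions were not counted.

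The next question was how combo differed from DTP. In H1975, combo was higher than DTP at 31 and lower at 3 of 76 distal regions (44.7% called, against 31.4% of all distal regions, with 40.8% higher against 18.5% and 13% lower over all). Near a start 14 of 22 regions were higher and none lower (63.6%, against 34.5% called and 28.1% higher). The median log2 fold change was 0.32 over the distal regions and 0.40 near a start, beside 0.03 and 0.16 over all annotated regions. The higher distal regions came from MYOF (12 of 20), AMOTL2 (6 of 13), CCN1 (5 of 10), NUAK2 (4 of 7), CRIM1 (3 of 10) and CCN2 (1 of 4). With libraries summed, 10 regions were higher and 1 lower in place of 45 and 3. Over all 191202 tested H1975 regions that setting called 2013 higher and 2637 lower, in place of 22069 and 18132. The largest rise was at CCN2, 4496 bases downstream of the start, from 2.05, 2.61 and 2.57 CPM in DTP to 8.4, 9.48 and 7.77 in combo (1.81, SE 0.20, adjusted p = 6.94e-15), where control read 0.309, 0.269 and 0.0. That region was chosen after its values were seen. Next was CCN1, 2814 bases downstream of the start, which read 2.78, 2.96 and 3.37 CPM in control, 4.86, 6.8 and 6.16 in DTP, 6.71, 8.53 and 6.5 with AZD5153 and 19.3, 20.6 and 18.6 in combo (1.70 against DTP, SE 0.13, adjusted p = 5.66e-27).

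In PC9, 17 of 63 distal regions were called in combo against DTP (27.0%; 5 higher and 12 lower), against 31% (14.3% and 16.7%), and 7 of 20 near a start, 5 of them higher, against 26.7% called and 17.2% higher. Of the 12 lower regions 6 were at AMOTL2 and 2 at CRIM1. With regional medians removed the split over all PC9 regions of the 10 genes was 11 higher and 9 lower in place of 10 and 14. With libraries summed 5 of them were called in place of 24, and without combo replicate 1 it was 14. Over all tested PC9 regions, summing gave 7820 calls in place of 28223. In HCC2935, 10 of 76 distal regions were called (13.2%; 1 higher and 9 lower), against 15.3% (2.15% and 13.1%), and 4 of 19 near a start, against 8.5%, and 4 of the 9 lower were at AMOTL1 and 3 at AMOTL2. That HCC2935 count of 14 regions was 7 without DTP replicate 1 or without combo replicate 1, and 8 without DTP replicate 2 or replicate 3. In HCC827 no region was called, against 0% of regions, none by DESeq2 or with the block (0.0304% of all tested regions), and none had an unadjusted p under 0.05.

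Against control, combo cells carried more calls than DTP cells in each line with calls, and these comparisons share the control libraries. In PC9, 40 of 63 distal regions were called (63.5%; 13 higher and 27 lower), against 58.9% (23.6% and 35.4%), and 7 of 20 near a start, against 46%. In H1975, 59 of 76 were called (36 higher and 23 lower), against 71.3% (28% and 43.2%), and 16 of 22 near a start, 13 of them higher, against 60.4% called and 42.9% higher. In HCC2935, 46 of 76 were called (60.5%; 20 higher and 26 lower), against 57.7% (25.2% and 32.5%), and 11 of 19 near a start, 9 of them higher, against 48.5% called and 36.6% higher. In HCC827 no region was called without the block, against 0.491% of distal regions and 0.101% near a start, while 10 had an unadjusted p under 0.05. DESeq2 called 2 there, against 625 of all 82309 tested regions. With the block 8 were called (5 higher and 3 lower), against 6.42% of all tested regions. They were both CCN1 elements (1.11, adjusted p = 0.0349, and 2.03, adjusted p = 0.00227), a pair of CRIM1 intron regions (-1.48, adjusted p = 0.00421, and 3.58, adjusted p = 0.0002), MYOF (-1.13, adjusted p = 0.0488) and the ANKRD1, AJUBA and AMOTL2 regions above.

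AZD5153 alone against control gave calls at these loci in both lines that had this group. The called share exceeded that of all annotated regions of the class only for distal regions in PC9. In PC9, 32 of 63 distal regions were called (50.8%; 12 higher and 20 lower), against 39.6% (17.1% and 22.4%), and 3 of 20 near a start, against 22.6%. AMOTL2 held 9 of the 20 lower regions, of which 5 were called with regional medians removed or with libraries summed. In H1975, 53 of 76 distal regions were called (69.7%; 19 higher and 34 lower), against 74.5% (20.4% and 54.1%), and 14 of 22 near a start, 10 of them higher, against 68.2% called and 43.9% higher. The H1975 split of 29 higher and 38 lower was 42 and 32 under library size scaling and 39 and 32 with regional medians removed. The medians of the 10 Mb bins around the genes ran from -0.49 at NUAK2 and -0.46 at CCN1 to 0.36 at AMOTL1 in this comparison.

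The interaction tests whether combo differed from DTP by as much as AZD5153 alone differed from control. In PC9 it was called at 16 of 63 distal regions (25.4%; 6 higher and 10 lower), against 22.8% (12% and 10.7%), and at 2 of 20 near a start, against 13.7%. In H1975 it was called at 51 of 76 distal regions (67.1%; 38 higher and 13 lower), against 64.2% (48.3% and 15.9%), and at 9 of 22 near a start, against 52.3%. CRIM1 went opposite ways, with 4 of 7 distal regions lower in PC9 and 7 of 10 higher in H1975, and DESeq2 size factors, library size scaling and regional medians removed left 3 to 4 lower in PC9 and 5 to 6 higher in H1975, where library size scaling also gave 1 lower. Under library size scaling the splits were 5 higher and 14 lower in PC9 in place of 8 and 10, and 30 and 27 in H1975 in place of 43 and 17, with the median of all H1975 regions at -0.32. With libraries summed 3 regions were called in PC9 and 31 in H1975. Over all tested regions summing gave 4770 calls in PC9 in place of 17424, and 46782 in H1975 in place of 81348.

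**Figure D5:**
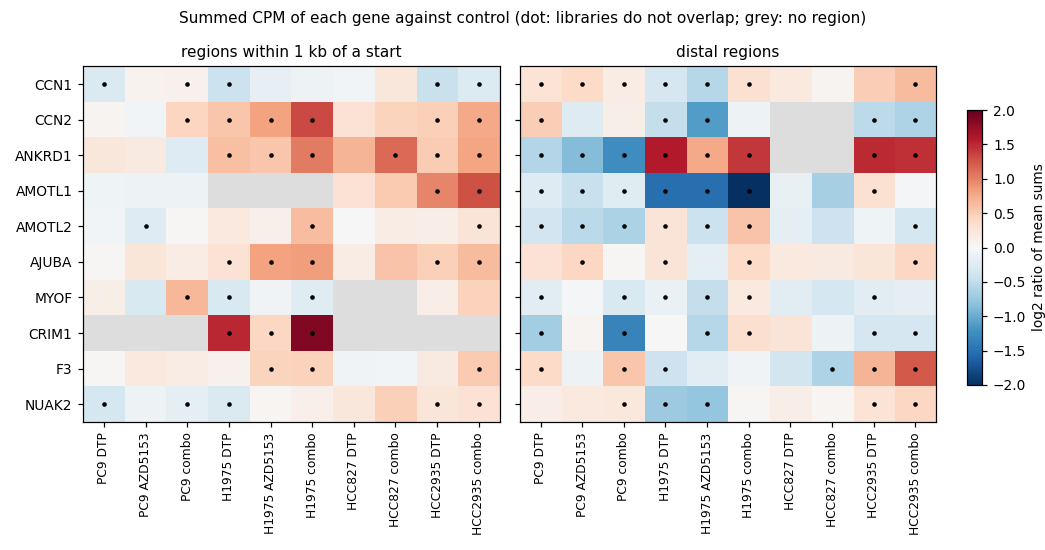
Log2 ratio to control of the CPM summed over the regions of each gene, near a start (left) and distal (right), for the 10 treated groups. A dot marks groups whose libraries do not overlap control, and grey marks genes with no region. CCN2, ANKRD1 and AJUBA rise near their starts in H1975 and HCC2935, and the distal sums of AMOTL1 fall in H1975.

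Other genes of published YAP and TEAD signatures were read as counts only. Over 14 such genes (13 with regions in H1975 and HCC827), 20 of 133 regions were higher and 40 lower in PC9 DTP, 38 of 121 higher and 52 lower in H1975 DTP, and 34 of 104 higher and 17 lower in HCC2935 DTP, and none of 100 was called in HCC827. In H1975 combo against DTP, 37 were higher and 6 lower. These counts hold regions near a start too. Over all annotated distal regions 17.3% were higher and 29.5% lower in PC9 DTP, 25.2% and 44.8% in H1975 DTP, 25.4% and 26.4% in HCC2935 DTP and 18.5% and 13% in H1975 combo against DTP. No test was made of the difference. Among 1209 genes with at least 3 distal regions in each table, which include 5 of the 10, the distal change most like the mean pattern of these 5 over the 10 treated groups was that of PHLDB2 (Pearson r 0.915), SDC4 (0.895) and ZCCHC14 (0.895). The 5 genes themselves, each a part of that mean, had lower r, from 0.553 (NUAK2) to 0.837 (MYOF). The groups of a line share their control libraries, and these values are a description.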

How the data were processed

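ATAC-seq of 42 libraries (14 groups of 3) was analysed from tables of raw counts that the authors deposited for each line, for regions of 502 bases. Only regions in the authors' annotated tables were read as members, and the fits used the whole tables. Per the labels, the submitters' processing notes name BWA 0.7.17, SAMtools 1.9, deepTools 3.4, MACS2 2.2.6, featureCounts 2.0.0, ChIPseeker 1.29.1 and hg38. The labelled extraction text is for a ChIP assay, while titles and files give ATAC-seq. Deposited peak lists per library were not used. Members and lists were chosen with earlier results of these data known.

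A separate model per line was fitted in R 4.3.3 with edgeR 4.0.16 (TMM, filterByExpr, group means, quasi-likelihood F test), with Benjamini-Hochberg adjustment over all tested regions and calls at an adjusted p under 0.05. All 333 member regions passed the filter. SE is the log2 fold change divided by the root of F. Regions of PC9, H1975 and HCC2935 were matched by a reciprocal overlap of at least 50% (GenomicRanges 1.54.1) to test the DTP change by line (limma 3.58.1 for voom). The scripts were tested on simulated counts.

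Regions named were the most open near a start and distal region per gene and line, and up to 3 called rises and 3 falls per line and comparison whose libraries did not overlap, above the median level, together with those said to be chosen after their values were seen and the regions matched to a named region in another line. Pairing by replicate number was checked by the correlation of deviations from group means between same-numbered libraries, 0.257 to 0.827 in HCC827, -0.01 to 0.013 in PC9, -0.062 to 0.015 in H1975 and -0.074 to 0.206 in HCC2935. Alternatives tried were scaling by library size only or by DESeq2 size factors, no filter, the replicate block, removal of medians in 10 Mb bins, summed libraries, DESeq2 1.42.0, each library left out and, for the lines together, an overlap of 80%, HCC827 added and voom with quality weights. With no genome sequence used here, distal sequences are not shown.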

Additional observations from a re-analysis of the deposited data

Results flagged for a closer look

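The DTP change differed between PC9, H1975 and HCC2935 at 49 of 89 matched regions, against 43.8% of all matched regions, by a test of the difference over the 3 lines. The values below are for matched regions named by the rule for DTP against control and called in this test. Called differences at AMOTL2 and ANKRD1 regions outside this rule are given above. The adjusted p of this test was 5.27e-24 at the NUAK2 region 20 kb downstream. It was 1.69e-17 at the AMOTL1 region that fell in H1975 and PC9 (-2.68 and -2.07) and was not called in HCC2935 (-0.14). At the AMOTL1 intron region that fell in PC9 it was 4.18e-07. It was 2.29e-09 at the AMOTL2 region upstream of the start, 2.89e-08 at the AMOTL2 region 23.3 kb from the start, 7.91e-06 at the CCN1 element 31 kb downstream and 0.000124 at the CRIM1 intron region. At MYOF it was 6.7e-05 for the region 34 kb downstream and 0.00717 for the region at chr10:93466355. Among the regions listed here, lines were called in opposite directions at NUAK2 and at the AMOTL1 intron region that fell in PC9 (-0.82 in PC9 and 2.55 in HCC2935). The same held at the AMOTL2 region 23.3 kb from the start (-0.34 in PC9, 0.79 in H1975 and -0.76 in HCC2935). At CRIM1 and at CCN1, as matched, they moved the same way by different amounts.

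By the interaction test, combo against DTP and AZD5153 alone against control gave different changes at 18 of 83 regions in PC9 and 60 of 98 in H1975. As given above, the called shares of distal regions lay close to those of all annotated distal regions. Near a start they lay below those of all annotated regions there. In PC9 the interaction on the log2 scale was -2.25, -1.57 and -1.29 at CRIM1 regions 20, 47 and 40 kb from a start, and 0.93 at the AMOTL2 region 22.0 kb from the start, 0.82 at the AMOTL1 intron region and 0.78 at a CCN1 region near the start. The last was not called without a filter on low counts, with libraries summed, by DESeq2 or without control replicate 2. The AMOTL1 value was not called under library size scaling, without a filter, with libraries summed, by DESeq2 or in 6 of 12 fits with a library left out (control replicate 1, DTP replicates 1 and 2, AZD5153 replicates 2 and 3, combo replicate 3). In H1975 it was 4.52 at the AMOTL2 region upstream of the start, 2.83 at NUAK2 1756 bases downstream and 2.78 at CCN2 15 kb upstream, and -0.89 at MYOF, -0.81 at AJUBA and -0.53 at an AMOTL2 region 25.7 kb from the start. With libraries summed the last 3 were not called. The AMOTL2 value was also lost without a filter, by DESeq2 and without control replicate 1, control replicate 2, DTP replicate 3 or combo replicate 3, and the AJUBA value without a filter and without control replicate 3. Groups of 3 libraries were not tested for single deviating libraries.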

How the results depend on the processing

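No change named by the rule reversed its direction under an alternative. Regions chosen after their values were seen are not among the changes counted here. Changes named by the rule were picked as the largest called ones in the main fit. Except for the interaction, they were also picked for libraries without overlap. Their persistence under alternatives is thus favoured by this choice and is no independent check. Of 76 changes named by the rule, 58 were called under each alternative and with each library left out, 17 of the other 18 were lost with libraries summed, 12 in another setting and 10 with a library left out. Counts of called regions moved by over 1.5 times as follows. For DTP against control, PC9 had 30, and 15 with libraries summed or 18 by DESeq2. HCC827 had 0, and 1 without a filter, 11 summed and 2 by DESeq2. For combo against DTP, PC9 had 24, and 5 summed or 11 by DESeq2, H1975 had 48, and 11 summed, and HCC2935 had 14, and 7 without a filter, 4 summed or 6 by DESeq2. For combo against control, HCC827 had 0, and 1 without a filter, 13 summed and 2 by DESeq2. For AZD5153 against control, PC9 had 35, and 18 summed or 20 by DESeq2. For the interaction, PC9 had 18, and 10 without a filter, 3 summed or 8 by DESeq2, and H1975 had 60, and 31 summed. Over all tested regions these settings moved the calls too. PC9 DTP against control went from 40150 to 21227 summed and 25165 by DESeq2. H1975 combo against DTP went from 40201 to 4650 summed, and HCC827 DTP against control from 18 to 10389. The replicate block gave 4 calls in HCC827 DTP and 8 in combo against control, in place of 0, and changed no other count by over 1.5 times. In PC9 and H1975 the numbers did not pair the samples. In HCC2935 same-numbered DTP and combo libraries deviated together weakly (r of 0.0953, 0.1788 and 0.2063).

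With each library left out, DTP against control gave 23 to 33 regions in PC9, 63 to 69 in H1975, 0 to 2 in HCC827 and 37 to 47 in HCC2935. Combo against DTP gave 14 to 23, 39 to 51, 0 to 0 and 7 to 15, and combo against control 37 to 47, 67 to 76, 0 to 1 and 48 to 57, in the same order. AZD5153 gave 26 to 35 in PC9 and 61 to 68 in H1975, and the interaction 13 to 19 and 51 to 58. The HCC827 counts of 2 and 1 came without combo replicate 3 and without DTP replicate 3. The 49 regions with a difference between lines were 44 to 50. They were 36 of 71 at an overlap of 80%, 44 of 86 with HCC827 added, 47 of 86 by voom and 42 by DESeq2. Without a filter the higher and lower calls were 10 and 8 in PC9 combo against DTP, 14 and 11 in PC9 AZD5153, 44 and 4 in the H1975 interaction, 26 and 10 in HCC2935 DTP and 34 and 14 in HCC2935 combo against control. Summed, they were 8 and 24 in PC9 combo against control. The causes were not tested.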

Other observations

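Near the starts of the 10 genes the median log2 fold change in HCC827 combo against control was 0.44, beside 0.04 over all annotated regions near a start, with no region called without the replicate block. At the CCN1 locus a region 4334 bases downstream of the start, chosen after its values were seen, rose in H1975 from 0.773, 0.942 and 0.539 CPM in control to 4.99, 4.76 and 9.96 in DTP (3.12 on the log2 scale, SE 0.29, adjusted p = 2.11e-20). The CRIM1 region of H1975 within 1 kb of an annotated start rose from 4.17, 3.63 and 4.18 CPM to 10.2, 11.8 and 12.0 in DTP (1.51, SE 0.17, adjusted p = 4.73e-16) and was 13.1, 14.8 and 15.2 in combo. The other 3 annotated tables list no CRIM1 region within 1 kb of a start.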
